A study of Gossypium hirsutum with 6 samples.

Results

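In developing fibers of *G. hirsutum* cv. TM1, 143 of 11858 fiber probes (1.21%) were lower than at 5 days post-anthesis (dpa) in both wall phases. Their mean log2 ratio to 5 dpa was at most -1, a 2-fold decrease, over the primary cell wall (PCW) stages 8, 10 and 14 dpa and again over the secondary cell wall (SCW) stages 21 and 24 dpa. The mean was at most -1 over the PCW stages for 252 probes (2.13%) and over the SCW stages for 978 probes (8.25%). The probes were chosen by these measured ratios, so their levels at those 5 stages are a description. The 17 dpa value took no part in the choice.

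The fibers came from plants grown in a greenhouse, and total RNA of each stage was labelled and hybridized to 2-colour oligonucleotide arrays in a double loop that included dye swaps. Each stage, 8, 10, 14, 17, 21 or 24 dpa, was deposited as 1 profile of log2 ratios, and all 6 profiles share the 5 dpa fiber as reference. No stage has a replicate profile, so no difference could be set against replicate spread and no p-value is given. The ratios come from bulk RNA, in which fewer cells of a type and less RNA per cell cannot be told apart.

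A cotton fiber is a single cell that grows out from the seed coat epidermis. During elongation it lays down a thin primary wall rich in pectin and xyloglucan, and it later deposits a thick secondary wall that is nearly pure cellulose. Glutathione S-transferases join glutathione to reactive compounds, and flavanone 3-hydroxylase makes dihydroflavonols, the precursors of flavonols, anthocyanins and proanthocyanidins.

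Only probes in the study's list of 125 genes, called Set 1 by the authors, carry a gene description, and 124 of them had values at all 6 stages. Among the 143 probes 6 belonged to Set 1 (4.84% of its 124 genes and 4.20% of the probes), all of them in the authors' cluster 3, which holds 42 genes with values. The study chose Set 1 partly on these samples, so its share is no independent evidence. The authors describe cluster 3 as down in both wall phases in TM1 and made it partly from these profiles. That all 6 fall in it therefore follows largely from the choice. Of the 6, 1 is described as a glutathione S-transferase, 1 as a flavanone 3-hydroxylase and 4 as of unknown function. The other 137 probes have no gene name here, and 0 of the 143 matched the RefSeq gene table.

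The glutathione S-transferase probe GA_10dpa_fiberEST_11644, whose closest Arabidopsis entry is GSTU18, had log2 ratios of -1.88, -1.76, -2.42, -3.11, -3.63 and -4.28 at 8, 10, 14, 17, 21 and 24 dpa. After 10 dpa each ratio was lower than the one before. The mean was -2.02 over the PCW stages and -3.96 over the SCW stages.

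The flavanone 3-hydroxylase probe GA_10dpa_fiberEST_10602, whose closest Arabidopsis entry is TRANSPARENT TESTA 6, had ratios of -1.37, -0.50, -1.31, -1.92, -1.73 and -1.69 at 8, 10, 14, 17, 21 and 24 dpa. Its decrease was shallower than that of the glutathione S-transferase at every stage, and at 10 dpa it was less than 2-fold. The lowest value fell at 17 dpa, with 21 and 24 dpa close to it.

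Among the 4 genes of unknown function, GA_10dpa_fiberEST_11385 had the lowest mean in each phase, with ratios of -1.70, -1.82, -2.87, -2.84, -3.00 and -3.17 from 8 to 24 dpa. It stepped down between 10 and 14 dpa and then stayed near one level. GA_10dpa_fiberEST_04959 declined at every step, from -0.76 at 8 dpa through -1.05, -1.51, -1.97 and -2.31 to -2.60 at 24 dpa. GA_10dpa_fiberEST_12254 had ratios of -1.30, -1.08, -1.84, -1.76, -1.43 and -1.20. It was lowest at 14 dpa, and its SCW mean of -1.32 was slightly above its PCW mean of -1.41. GA_10dpa_fiberEST_05582 lay between -1.24 and -1.11 at the 5 stages from 8 to 21 dpa and at -3.91 at 24 dpa. Its SCW mean thus rests mostly on 24 dpa.

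**Figure D1:**
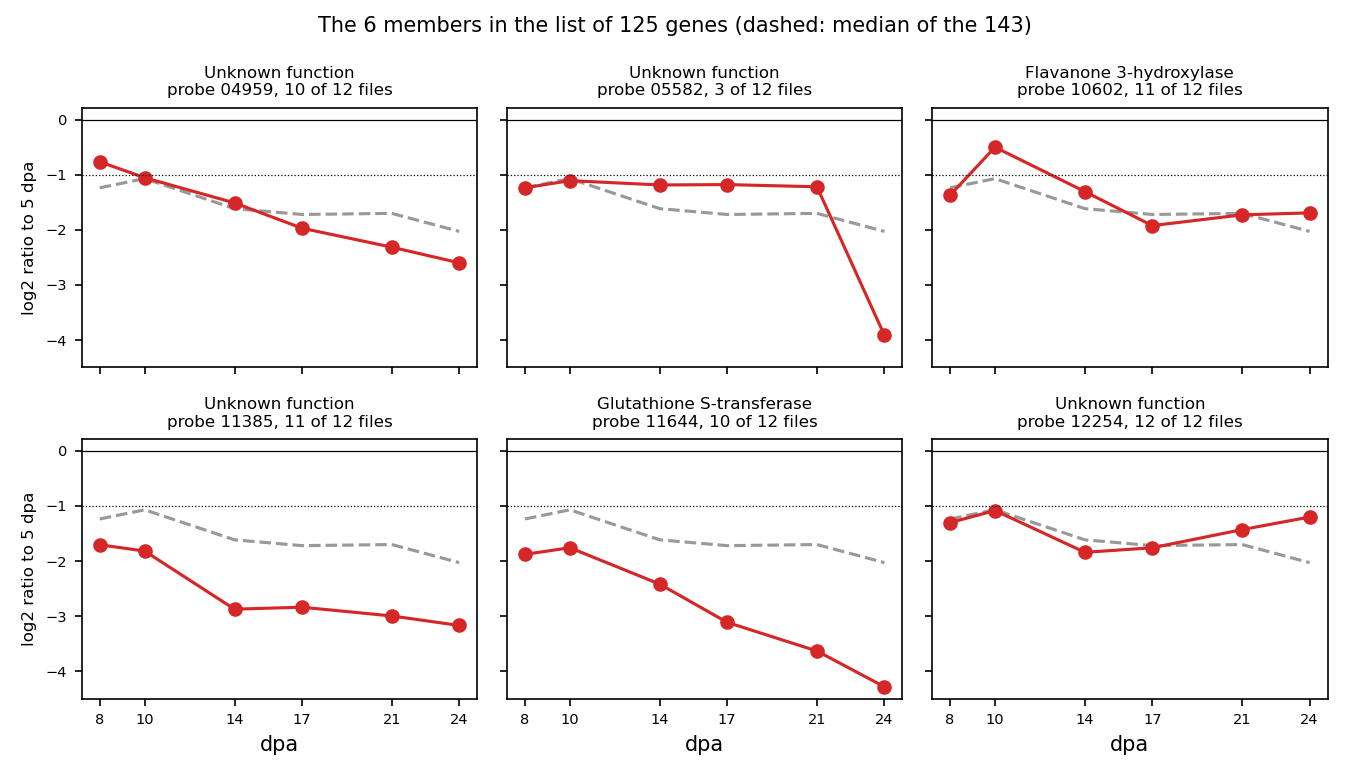
Log2 ratio to 5 dpa (vertical axis) against dpa (horizontal axis) for the 6 probes with a Set 1 entry, 1 panel each, with the number of scanner files in which the spot signal exceeded the buffer. The dashed line is the median of the 143 probes; the glutathione S-transferase falls to -4.28 at 24 dpa and the flavanone 3-hydroxylase stays between -1.92 and -0.50.

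The spots of these genes were mostly bright. Signal is the spot's mean intensity less the local background. A file counts for a probe when signal exceeds the empty buffer spots' median by more than 3 of their scaled median absolute deviations. A file in which both spots were flagged does not count. The glutathione S-transferase signal ranged from 5.03 to 1657, with a median of 772, over the 12 scanner files and exceeded the buffer in 10. It fell short in the Cy5 file of the 21 dpa sample (37.0, limit 61.5) and the Cy3 file of the 24 dpa sample (5.03, limit 37.4). In the other file of each of these samples its signal was high, at 982 (21 dpa, Cy3) and 1657 (24 dpa, Cy5). The labels do not tell which dye carried which stage, so the dim files are not matched to the ratios. The ratios were fitted over more hybridizations than the scanner files cover. The flavanone 3-hydroxylase signal ranged from 25.8 to 1575, with a median of 706, and exceeded the buffer in 11, all but the Cy3 file of the 24 dpa sample. The remaining 4 exceeded it in 3 (GA_10dpa_fiberEST_05582, median 90.0), 10, 11 and 12 files, so the gene with the abrupt 24 dpa value was the dimmest of the 6.

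Other described Set 1 genes of related function moved differently. In the phenylpropanoid and flavonoid group 1 of 2 genes was lower in both phases. The other, a putative anthranilate N-hydroxycinnamoyl/benzoyltransferase, had a mean of -0.80 over the PCW stages and 2.01 over the SCW stages, with signal above the buffer in 2 files. In the redox and iron group 1 of 3 was lower in both phases. Ferritin 3, an iron storage protein, had means of 2.35 and 3.44, and a probable glutathione peroxidase, which reduces peroxides, had means of 1.75 and 2.88 with signal above the buffer in 0 files.

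Of 2 sucrose synthase genes, which supply UDP-glucose from sucrose, 0 met both limits, although both were lower in the SCW phase. Their PCW means were -0.89 and -0.78 and their SCW means -2.22 and -2.77. Of 6 genes for expansin or wall polysaccharide enzymes 0 met both limits, and 1, a beta-galactosidase, was lower in the PCW phase only, with means of -1.16 and -0.50. Of 3 calcium signalling genes 0 met both limits. A pair of calcium-dependent protein kinase genes had PCW means of -0.48 and -0.39 and SCW means of -1.07 and -1.38.

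The 9 probes for fiber markers, among them expansin 1, beta-tubulin and cellulose synthase, exceeded the buffer in 11 or 12 files each, and 0 of them belonged to the 143 probes. In the SCW phase 4 of the 9 were at least 2-fold higher than at 5 dpa and 2, the sucrose synthase genes above, at least 2-fold lower. Expansin 1, which loosens the primary wall, had means of 0.72 and 1.13, and actin, a cytoskeletal protein, had 0.21 and -0.70.

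At each stage the 143 probes lay well below the 11858, whose medians were between -0.01 and 0.00. Their median was -1.24 at 8 dpa (lowest -5.83, highest 0.10), -1.07 at 10 dpa (lowest -4.91, highest 0.71) and -1.61 at 14 dpa (lowest -4.70, highest -0.75). At 21 dpa it was -1.70 (lowest -5.54, highest 0.64) and at 24 dpa -2.03 (lowest -8.61, highest 3.01). The shallowest median was thus at 10 dpa and the deepest at 24 dpa, where the spread was also widest. The SD over all 11858 probes was likewise smallest at 10 dpa (0.52) and largest at 24 dpa (1.06). The order of these medians is therefore a description only.

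At least 2-fold lower were 102 of the 143 at 8 dpa (2.76% of all probes), 82 at 10 dpa (2.05% of all), 138 at 14 dpa (4.24% of all), 123 at 21 dpa (7.02% of all) and 122 at 24 dpa (12.3% of all). The rule used these 5 stages, so nothing is read from these shares. At 14 dpa 0 of the 143 were above the 5 dpa level, beside 50.2% of all probes, and this stage also took part in the choice.

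At 17 dpa, the stage left out of the choice, the median was -1.72, with the middle 50% of the probes between -2.27 and -1.36, the lowest at -8.00 and the highest at 1.12. At least 2-fold lower were 130 of 143 (90.9%), beside 7.08% of all probes. No interval is given, because the probes share the same profile and are no replicates. The 17 dpa profile shares the 5 dpa reference and the linear model with the other stages, so it is no independent test of the choice. In 97 probes (67.8%, beside 86.8% of all) the 17 dpa value lay within 0.5 of the mean of 14 and 21 dpa, a smaller share than on the whole array.

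**Figure D2:**
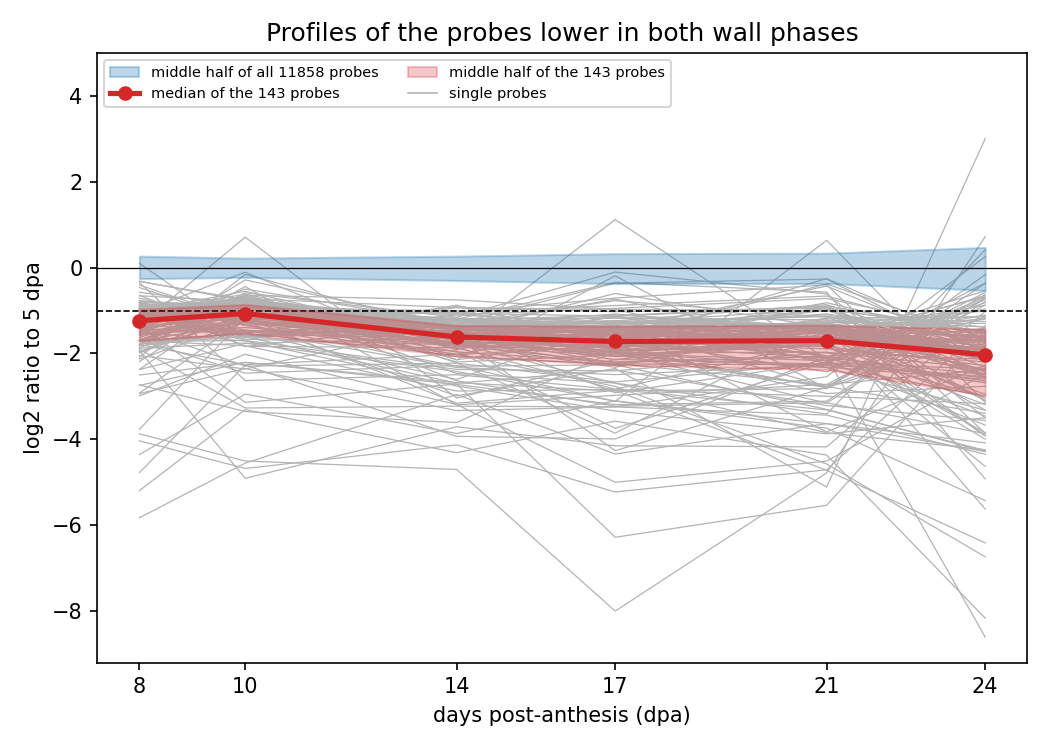
Log2 ratio to 5 dpa (vertical axis) against dpa (horizontal axis) for each of the 143 probes (grey), their median (red line) and middle 50% (red band), and the middle 50% of all 11858 probes (blue band). The red median runs from -1.24 at 8 dpa to -2.03 at 24 dpa, and single profiles fan out at 24 dpa from -8.61 to 3.01.

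The 143 probes did not share 1 course. At all 6 stages 135 were below the 5 dpa level (20.1% of all probes), and 39 (27.3%) were at least 2-fold lower at all 6, beside 0.329% of all probes, since a probe lower at every stage meets both limits by construction. The SCW mean was below the PCW mean in 116 (81.1%, beside 51.6% of all). It was at least 2-fold below in 33 (4.7% of all probes), within 2-fold in 105 (73.4%, beside 90.2% of all), and at least 2-fold above in 5 (5.11% of all). The lowest of the 6 values fell at 24 dpa in 83 probes (58.0%, beside 35.5% of all). All stages but 17 dpa took part in the choice, and all probes spread more widely in the SCW than in the PCW stages. These shares are therefore a description only.

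Between neighbouring stages most probes moved less than 2-fold. From 8 to 10 dpa 7 fell (2.16% of all probes) and 15 rose (3.04% of all) by at least 2-fold. From 10 to 14 dpa 26 fell (1.56% of all) and 3 rose (1.26% of all). From 14 to 17 dpa 9 fell (2.16% of all) and 5 rose (2.41% of all), and from 17 to 21 dpa 14 fell (3.15% of all) and 11 rose (3.38% of all). From 21 to 24 dpa 37 fell (5.68% of all) and 25 rose (7.76% of all), so the last step moved the most probes, in both directions. The 10 dpa value was above both of its neighbours in 88 probes (61.5%, beside 33.7% of all), among them the glutathione S-transferase and the flavanone 3-hydroxylase. All stages but 17 dpa took part in the choice, and the values of all probes spread least at 10 dpa. Nothing is therefore read from this share or from the counts by step.

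**Figure D3:**
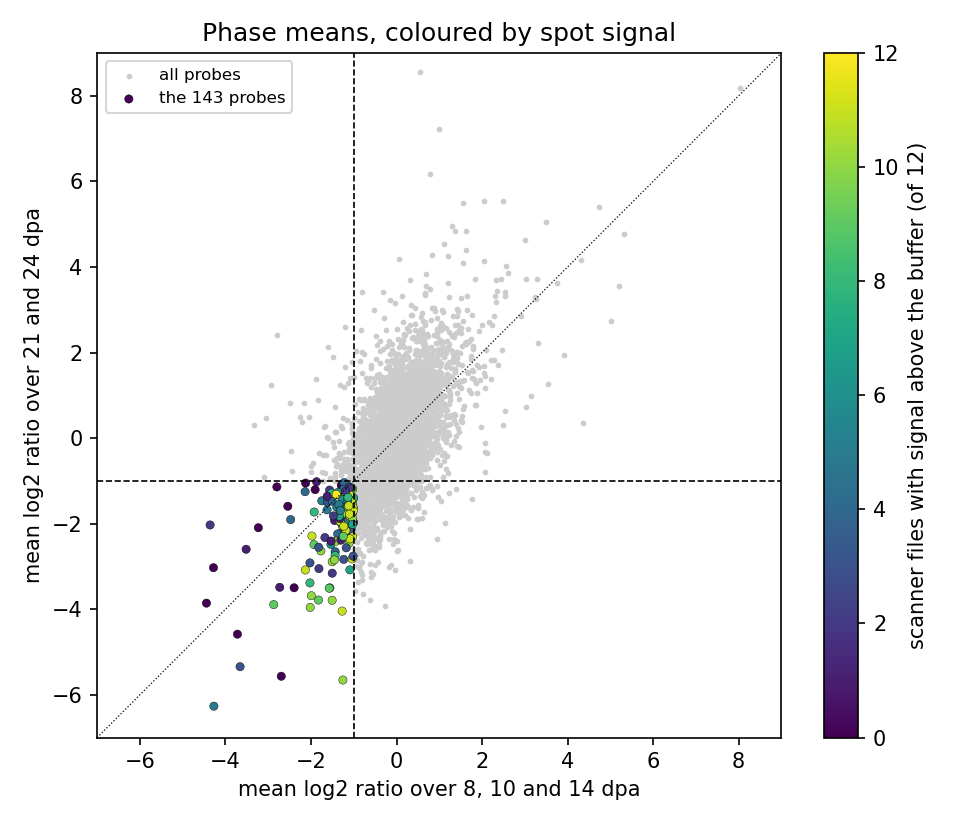
Mean log2 ratio over 21 and 24 dpa (vertical axis) against the mean over 8, 10 and 14 dpa (horizontal axis) for all 11858 probes (grey) and the 143 probes (coloured by the number of scanner files, of 12, with signal above the buffer). Dashed lines mark the limits of -1 and the dotted line equal means; 116 of the 143 probes lie below the dotted line, and the lowest PCW means belong to dim probes.

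By the mean over the 5 stages of the rule, the 2 lowest of the unnamed probes were GA_10dpa_fiberEST_00672 and GA_10dpa_fiberEST_11787. GA_10dpa_fiberEST_00672 had ratios of -5.19, -3.31, -4.31, -3.58, -4.37 and -8.17 from 8 to 24 dpa, and its signal exceeded the buffer in 5 files. GA_10dpa_fiberEST_11787 had ratios of -4.78, -2.27, -3.93, -3.99, -2.08 and -8.61 and exceeded it in 3. Both dropped steeply from 21 to 24 dpa.

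The 5 probes whose SCW mean was at least 2-fold above the PCW mean, given here after their values were seen, were GA_10dpa_fiberEST_00249, GA_10dpa_fiberEST_01411, GA_10dpa_fiberEST_02575, GA_10dpa_fiberEST_03621 and GA_10dpa_fiberEST_08578. GA_10dpa_fiberEST_02575 had a ratio of -8.00 at 17 dpa and 0.72 at 24 dpa, and GA_10dpa_fiberEST_01411 had -5.11 at 21 dpa and 3.01 at 24 dpa. The signal of GA_10dpa_fiberEST_02575 exceeded the buffer in 2 files and that of the other 4 in 0.

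In all 12 files 5 probes exceeded the buffer (35.4% of all probes did). Also given after their values were seen, they were GA_10dpa_fiberEST_02578, GA_10dpa_fiberEST_02752, GA_10dpa_fiberEST_03016, GA_10dpa_fiberEST_11498 and GA_10dpa_fiberEST_12254. GA_10dpa_fiberEST_03016 had ratios of -1.08, -1.03, -1.66, -1.72, -1.89 and -2.20 from 8 to 24 dpa. The difference between the highest and lowest of the 6 values was between 0.76 and 1.18 in these 5 probes, beside 8.72 in GA_10dpa_fiberEST_02575.

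Spot signal, which the rule did not use, was low for most of the 143 probes. The 12 scanner files come from 7 arrays, and their median signal ranged from 34.4 to 592. The study describes more hybridizations per genotype than this, so the files cover only part of the data behind the ratios. The median signal rank of the 143 among all probes was the 24.9th percentile over the files, from 11.1 to 40.3, and it lay under the 50th in 12 of 12 files. Above the buffer in at least 6 files were 76 of the 143 (53.1%, beside 82.5% of all probes), and in at least 10 files 45 (31.5%, beside 63% of all). In 0 files were 12 (8.39%, beside 2.68% of all). A transcript that falls also gives less signal at the later stages, so a low level and a low signal cannot be told apart here.

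**Figure D4:**
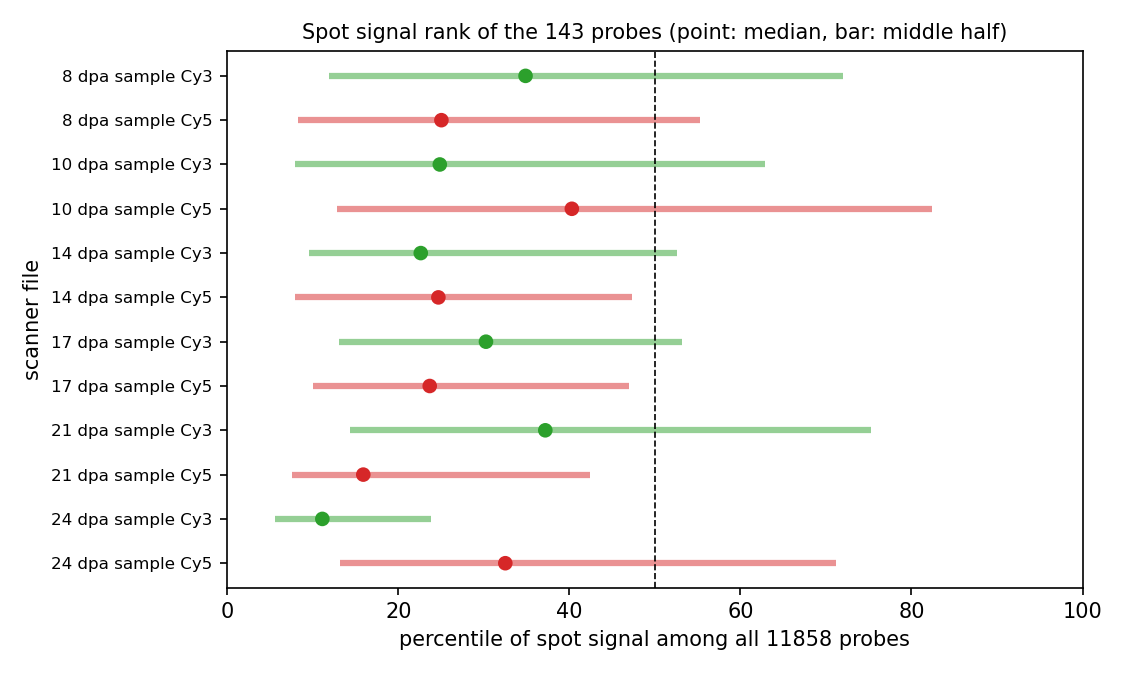
Percentile of spot signal among all 11858 probes (horizontal axis) for the 143 probes in each of the 12 scanner files (vertical axis; green, Cy3; red, Cy5). Points are medians and bars the middle 50%; all 12 medians lie left of the dashed line at 50, the lowest at 11.1 in the Cy3 file of the 24 dpa sample.

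The share of probes lower in both phases fell as signal rose. It was 3.77% of the 318 probes above the buffer in 0 files, 3.13% of the 1759 in 1 to 5, 1.34% of the 2306 in 6 to 9 and 0.602% of the 7475 in 10 to 12 files. The range over the 6 stages had a median of 3.06, 2.03, 1.48 and 1.27 in these classes. Values above the 5 dpa level occurred in 3 of 12, 5 of 55, 0 of 31 and 0 of 45 probes. At 17 dpa, 11 of 12, 44 of 55, 30 of 31 and 45 of 45 were at least 2-fold lower. Of all probes in these classes 23.6, 15.7, 7.85 and 4.09% were at least 2-fold lower at 17 dpa, and 95, 86.3, 81.5 and 77.3% were above the 5 dpa level at some stage. The median range over all probes of the classes was 2.76, 1.47, 0.94 and 0.60, so it widened with falling signal on the whole array and not among the 143 alone.

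The Cy3 file of the 24 dpa sample stood apart, with 8 of the 143 (5.59%) above the buffer, beside 38.5 to 82.5% in the other files. Of all probes 47.0% exceeded the buffer in it, beside 66.8 to 92.8% in the others. The 2 spots of a probe differed by a median of 0.25 on the log2 scale over the files for the 143 and 0.18 for all probes, and the difference was larger for the 143 in 12 of 12 files. In the Cy3 file of the 24 dpa sample it was 0.99 for the 143 and 0.38 for all probes. Only probes with 2 unflagged spots of positive signal enter this measure, 55 of the 143 in that file. How far this file shaped the 24 dpa profile was not tested.

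**Figure D5:**
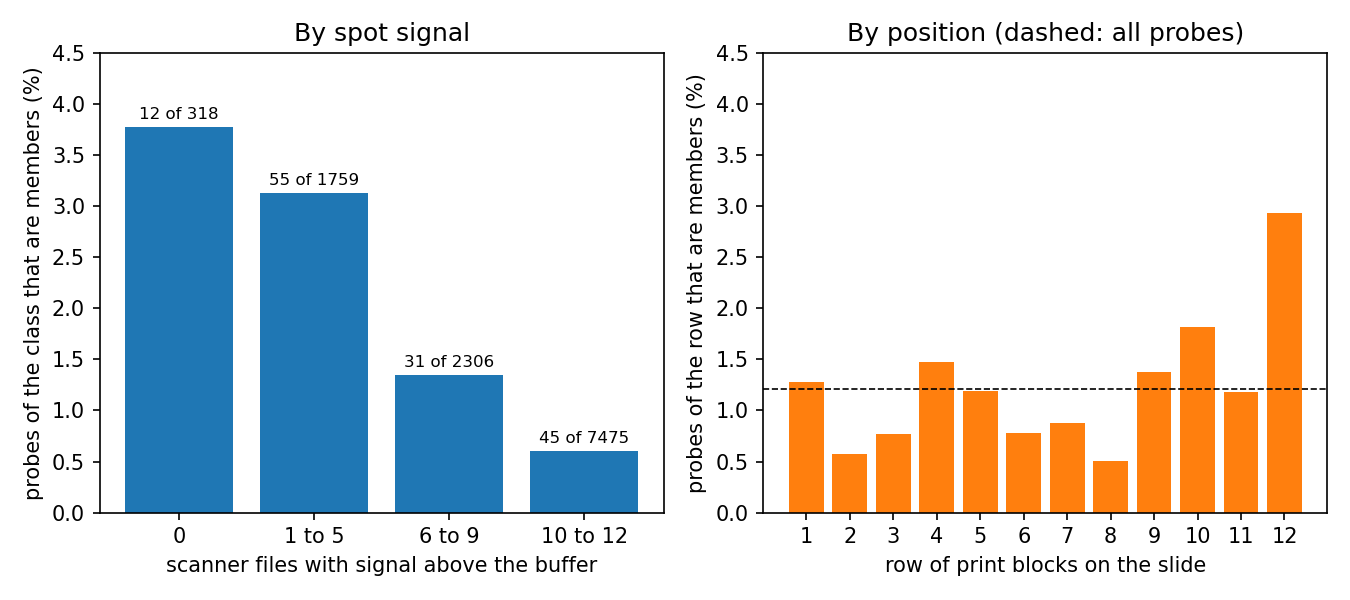
Percentage of probes that are among the 143 (vertical axes), by the number of scanner files with signal above the buffer (left) and by row of print blocks on the slide (right; dashed line, all probes). The share falls from 3.77% to 0.602% with signal and is 2.93% in the last row of print blocks.

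Position on the slide also differed. The last of the 12 rows of print blocks held 26 of the 143 among its 887 probes (2.93%), and the other rows held from 0.504 to 1.82%. At some stage 52.6% of the probes in the last row differed 2-fold or more from 5 dpa, beside 25.4 to 37.6% in the other rows. In under 6 files were 34.4% of its probes above the buffer, beside 12.3 to 23.5%. The part of position in the choice was not tested, and 117 of the 143 lay outside that row.

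On the 5 arrays with files of both dyes, it is not known from the labels which dye carried which stage, so sizes are given without a direction. On arrays whose files belong to 1 sample, those of the 143 with a channel ratio lay mostly on 1 side. These were 80.2% of 126 for the 8 dpa sample, 88.4% of 138 for 10 dpa, 79.4% of 126 for 21 dpa and 88.0% of 142 for 24 dpa. The arrays entered the fit behind the ratios used for the choice, so the one-sidedness is a description only. On the array that the 14 and 17 dpa samples share it was 54.9% of 113, so the probes did not lie mostly on 1 side there. The median size of the channel log2 ratio was 0.11, 0.05, 0.39 and 0.34 at 8, 10, 21 and 24 dpa, and 0.07 on the shared array. For all probes it was 0.07, 0.03, 0.19 and 0.24, and 0.08 on the shared array, where the 143 were no larger than the rest. With plain background subtraction and centring on the array's median, the sizes among the 143 were 0.54, 0.70, 1.43 and 2.56, and 0.29. For all probes they were 0.19, 0.24, 0.40 and 0.73, and 0.15. Plain ratios need positive signal in both channels, which 115, 135, 118 and 94, and 111, of the 143 had. At 24 dpa only 8 of the 143 were above the buffer in both channels. Of all probes, 50.7 to 51.9% lay on the larger side.

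The limit of -1 cut through a continuous range. Just inside it were probes with PCW means of -1.0031, -1.0050 and -1.0112, and just outside -0.99979, -0.99947 and -0.9965, all with SCW means below -1. Within 0.1 of a limit lay 34 probes inside and 69 outside. The Set 1 genes that missed by least were GA_10dpa_fiberEST_00147 (PCW mean -0.99979, SCW mean -2.60), GA_10dpa_fiberEST_08535 (-0.97 and -1.44), the NPH3 domain protein GA_10dpa_fiberEST_00949 (-0.90 and -3.37) and GA_10dpa_fiberEST_12579 (-0.89 and -2.59).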

How the data were processed

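Total RNA of fibers of 1 cotton cultivar was hybridized to 2-colour arrays. For each stage the authors deposited log2 ratios against 5 dpa, made after hand flagging, background subtraction, exclusion of spots under the buffer mean plus 3 SD, removal of divergent dye swaps, lowess normalization and limma's linear models. The deposited scanner files hold spot and background intensity (means over pixels, not normalized) and a flag set by hand.

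The deposited values were used as they are. Of 12263 entries 12238 are fiber probes, and 11858 of these have values at all 6 stages. Spot signal is the average of a probe's 2 spots after background subtraction, without flagged spots. Channel ratios used normexp (offset 50) and loess in limma 3.58.1 (R 4.3.3). Other steps used Python 3.11.15, pandas 2.3.3, numpy 2.4.6 and scipy 1.17.1. The code that applies the limits was tested on simulated data, which bears on the code only. The probes, limits and gene groups were chosen with earlier results of these data known. No intervals are given, and the number of arrays limits the precision.

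Named are every member in Set 1, the 2 members with the lowest mean, probes at the limits, up to 4 Set 1 near misses and described Set 1 genes of the same groups. For any other probe the text says that it was picked with its values known. Alternatives changed the fold limit, centring, stages, weak-spot filter, buffer limit, background and ratio method. No values for *G. barbadense* were used here.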

Additional observations from a re-analysis of the deposited data

How the results depend on the processing

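Of 79 alternatives over 18 results, 40 stayed close to the reported value and 39 moved. Only the stage medians were checked for a change of sign, with 0 found. Their probes were chosen for low ratios, so this is no evidence of stability. The number of probes was 662 with a 1.5-fold limit, 28 with 3-fold, 41 when each of the 5 stages had to be 2-fold lower, 76 among probes above the buffer in at least 6 files and 5 among those above it in every file. These limits are looser or stricter by construction. It was 117 without the last row of print blocks, an alternative chosen after seeing the data.

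The share at least 2-fold lower at 17 dpa was 66.2% with 1.5-fold, 100% with 3-fold and 98.7% among probes above the buffer in at least 6 files. The share lower at all 6 stages was 5.89% and 75% with 1.5-fold and 3-fold. The medians at 8, 10, 14, 17, 21 and 24 dpa were -0.75, -0.69, -1.03, -1.17, -1.15 and -1.50 with 1.5-fold and -2.06, -2.21, -2.74, -3.04, -3.26 and -3.01 with 3-fold. The means in their place were -1.47, -1.31, -1.83, -1.97, -1.98 and -2.25. The 8 dpa median was -1.09 among probes above the buffer in at least 6 files.

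Probes with an SCW mean at least 2-fold below the PCW mean numbered 53 without 21 dpa and 20 above the buffer in at least 6 files. Those at least 2-fold above numbered 10 and 0, and those within 2-fold were 56 above the buffer in at least 6 files. Without 24 dpa, 44 were lowest at 21 dpa and 56 at 17 dpa. The shares over all probes were not computed for this setting, so nothing is read from these counts. With the buffer spots' mean plus 3 SD as limit, 1 of the 143 exceeded it in at least 6 files (7.07% of all probes), so this count depends on how the limit was set. The study describes leaving out spots under a limit of this kind. The channel ratio, a median of 0.11 over the arrays, was 0.70 with plain subtraction. Set 1 genes numbered 21 with 1.5-fold and 2 with 3-fold. The cause of the other shifts was not tested. No paired analysis was possible because each stage has 1 profile and the labels carry no replicate numbers. Weak signal limits at least the probes outside the 76 above the buffer in at least 6 files. By the mean plus 3 SD limit it bears on all but 1 of the 143.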

Other observations

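The array also carries 4 leaf control features, for chlorophyll a/b binding proteins of the photosynthetic antenna, which were chosen for description after their values were seen. Their PCW means ranged from -1.04 to 0.16 and their SCW means from -0.69 to 0.03, and 0 of them met both limits. Of their 24 stage values 3 were at most -1, and their signal exceeded the buffer in 8 to 11 of the 12 files.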
